A study of Mus musculus with 4 samples.

Results

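The genes described here are 9 surface receptors that hold hematopoietic stem cells (HSCs) in the bone marrow niche or carry them back to it, namely *Cxcr4*, *Itga4*, *Itga6*, *Itgb1*, *Itgal*, *Cd44*, *Selplg*, *Vcam1* and *Robo4*. They were picked by symbol for their role, with earlier results of these data known, and all 9 were found among the 19354 genes of the RNA-Seq table and passed the filter for testing. The study compared HSCs that lack *Id2* with control HSCs, because ID2, a helix-loop-helix protein without a DNA-binding domain, was examined there as a factor that keeps HSCs quiescent. The mice carried *Mx1-Cre* with either *Id2*+/+ (14 mice) or *Id2* fl/fl (15 mice), were 8 to 16 weeks old, and were used 2 weeks after pIpC. Since pIpC turns on Cre through the interferon-responsive *Mx1* promoter, the *Id2*+/+ controls had the same interferon stimulus and the same Cre, and deletion is not limited to HSCs. HSCs were sorted as LSK FLT3- CD48- CD150+ cells and pooled within each genotype in 2 separate experiments. Each genotype gave 2 libraries, called replicates 1 and 2 here. The labels do not say which experiment or which animals a library came from, so the p-values measure only the spread between these libraries, which may be technical.

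Retention in the niche works through a few kinds of contact. The chemokine CXCL12, made by stromal cells, draws HSCs toward the niche through CXCR4, while integrins, which are pairs of one alpha and one beta chain, grip VCAM1, laminin or ICAM proteins once they are activated from inside the cell. CD44 holds hyaluronan, and PSGL-1 (the product of *Selplg*) tethers rolling cells to selectins. ROBO4 belongs to the ROBO family of guidance receptors and takes part in the placement of HSCs near vessels.

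The values were log2 counts-per-million (CPM), quantile-normalized by the authors, so that every library has a median of 3.92 log2 CPM. Below 32 CPM, whole reads could be recovered from the order of the distinct values, and they gave a depth of 14207350 and 15663326 reads in the control libraries and of 17761330 and 18831991 reads in the *Id2*Δ/Δ libraries. The deleted gene, *Id2*, had 93 and 98 reads in *Id2*+/+ HSCs and 0 in both *Id2*Δ/Δ libraries. A count of 0 allows 3 reads per library, so the mean *Id2* rate in the controls exceeded that of *Id2*Δ/Δ HSCs at least 39-fold. The identity of the cells was read from marker RNAs. All 12 HSC markers had a row, with a summed level of 5829 to 5936 CPM in *Id2*+/+ and 4283 to 5008 CPM in *Id2*Δ/Δ libraries, while the sort gate's 2 negative markers, *Flt3* and *Cd48*, summed to 53 to 57.7 and 48.3 to 52.3 CPM. Across the tested genes, which are not independent replicates, the *Id2*Δ/Δ libraries correlated less well with each other (r = 0.942) than the *Id2*+/+ libraries did (r = 0.972). They also correlated less well than every pair across the genotypes (r = 0.95 to 0.964), so the libraries did not group by genotype. *Id2*Δ/Δ replicate 1 had the most genes at 0 reads, 606, against 326 in *Id2*Δ/Δ replicate 2 and 183 and 170 in *Id2*+/+.

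None of the 9 receptors differed between the genotypes past the threshold, an adjusted p under 0.05 from limma with Benjamini-Hochberg adjustment over 15895 tested genes. The same test called 0% of all tested genes, and no receptor had an unadjusted p under 0.05, a level passed by 1.72% of all tested genes upward and 2.95% downward in *Id2*Δ/Δ HSCs. The deleted gene *Id2*, at 6.55 and 6.26 reads-per-million in *Id2*+/+ and 0 in both *Id2*Δ/Δ libraries, was not called either. With 2 libraries per genotype, a gene that did not pass is therefore not shown to be unchanged. In 1 of 9 receptors, *Cxcr4*, the *Id2*Δ/Δ values were both higher than both control values, against 19.0% of all tested genes. In 2 of 9, *Itga6* and *Robo4*, they were both lower, against 15.8% of all tested genes. The median log2 difference (*Id2*Δ/Δ minus *Id2*+/+) was -0.04 over the 9 receptors and 0.01 over all tested genes. In 7 of the 9 receptors, the gap between replicates of one genotype was larger than the difference between the genotype means. The exceptions were *Itga6* and *Robo4*. In bulk RNA a lower value can come from fewer cells of a type or from less RNA per cell, and these cannot be told apart.

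**Figure D1:**
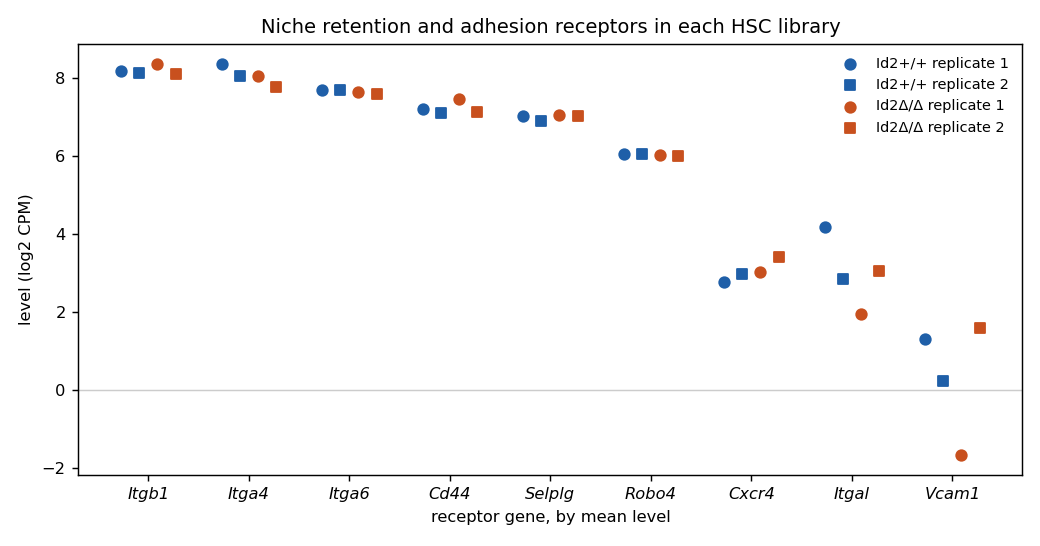
Level of each receptor gene (log2 CPM, y axis) in each of the 4 libraries (blue, Id2+/+; orange, Id2Δ/Δ; circles, replicate 1; squares, replicate 2), ordered by mean level. The points of *Itgb1*, *Itga6*, *Selplg* and *Robo4* lie within 0.24 log2 units of each other, while those of *Vcam1* span 3.26.

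The upstream sequences of 3 receptors are shown because ID2 binds E proteins, the helix-loop-helix factors that recognize the E-box CANNTG. The paper, however, holds it unlikely that ID2 keeps HSCs quiescent through E proteins. It reports instead that ID2 stabilizes HIF-1α by binding the VHL protein. RefSeq promoter windows on GRCm38.p6 (250 bases before to 50 bases after the start site) matched 5 of the 9 receptors, *Cxcr4*, *Itga4*, *Cd44*, *Itgb1* and *Robo4*. The stretches upstream of the start, read on the gene's strand from 5′ to 3′ with E-boxes in capitals, are those of *Itga4* (chr2:79255176-79255425, plus strand), *Robo4* (chr9:37401722-37401896, plus strand, ending before the start of the longer GENCODE model) and *Cxcr4* (chr1:128592300-128592549, minus strand).
Itga4: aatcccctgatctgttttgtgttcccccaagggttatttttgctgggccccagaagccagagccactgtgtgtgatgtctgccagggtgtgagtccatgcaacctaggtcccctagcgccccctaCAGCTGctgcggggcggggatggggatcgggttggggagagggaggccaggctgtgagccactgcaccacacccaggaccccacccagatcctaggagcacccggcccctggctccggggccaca
Robo4: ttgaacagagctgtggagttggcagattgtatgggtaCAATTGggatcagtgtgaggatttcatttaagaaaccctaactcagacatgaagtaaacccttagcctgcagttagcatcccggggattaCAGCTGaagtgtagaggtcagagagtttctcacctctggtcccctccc
Cxcr4: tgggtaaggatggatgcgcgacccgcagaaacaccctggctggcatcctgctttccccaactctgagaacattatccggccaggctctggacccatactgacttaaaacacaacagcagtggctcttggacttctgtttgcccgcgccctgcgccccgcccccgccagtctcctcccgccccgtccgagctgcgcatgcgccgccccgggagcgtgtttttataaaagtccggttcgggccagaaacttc
*Itga4* had 1 E-box, CAGCTG, which begins 125 bases before the RefSeq start site. *Robo4* had 2, CAATTG at 213 and CAGCTG at 123 bases before it. The windows of *Cxcr4*, *Cd44* and *Itgb1* had 0. Among 32851 RefSeq windows of this length, 72.3% held CANNTG and 16.3% held CAGCTG, each searched on both strands. The core letters of the HIF element were searched as ACGTG, found once in the *Cd44* window and in 19.6% of all windows, and GCGTG, found once each in the *Itga4* and *Cxcr4* windows and in 32.4% of all. CAGGTG, an E-box form, was in none of the 5 windows and in 20.2% of all. The ETS core GGAA was in all 5, with 1 to 8 matches, and in 96% of all windows. A match is a run of letters, not a bound site.

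The chemokine receptor CXCR4 is the anchor of HSCs to CXCL12. *Cxcr4* (ENSMUSG00000045382.6, chr1:128588199-128592293 on the minus strand of GRCm38) measured 2.77 and 2.99 log2 CPM in *Id2*+/+ and 3.04 and 3.41 log2 CPM in *Id2*Δ/Δ replicates 1 and 2. These levels rest on 99 and 127 reads in *Id2*+/+ and 144 and 195 reads in *Id2*Δ/Δ HSCs. The groups did not overlap, but the gap between them was 0.06 log2 units, smaller than the 0.22 and 0.37 between replicates. The log2 difference was 0.35 (standard error 0.30, 95% interval -0.36 to 1.05, adjusted p = 0.910, limma with Benjamini-Hochberg adjustment). On the linear scale this is 1.27-fold higher in *Id2*Δ/Δ HSCs, with an interval from 0.782-fold to 2.08-fold. Leaving out *Id2*Δ/Δ replicate 2, the highest library, brought the difference to 0.16.

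The ligand of CXCR4 had no steady level in either genotype. *Cxcl12*, a product of stromal cells, had 105 and 0 reads in the *Id2*+/+ and 102 and 22 reads in the *Id2*Δ/Δ libraries, so its fitted log2 difference of 2.55 rested on 1 library listed at 0. The signal carriers downstream of CXCR4 were abundant. *Gnai2*, an inhibitory G-protein alpha subunit and the most abundant of the group, had a log2 difference of -0.07, and *Arrb1*, an arrestin that desensitizes such receptors, one of 0.14, both with non-overlapping libraries and an adjusted p of 0.910 or more from limma. *S1pr1*, the receptor that draws cells out of tissue along sphingosine-1-phosphate, had a log2 difference of -0.16.

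VLA-4, the pair of the alpha4 chain (*Itga4*) and the beta1 chain (*Itgb1*), binds VCAM1 and fibronectin and is the best-known integrin of HSC homing. *Itga4* (ENSMUSG00000027009.18, chr2:79255426-79333123, plus strand) measured 8.38 and 8.05 log2 CPM in *Id2*+/+ and 8.06 and 7.77 log2 CPM in *Id2*Δ/Δ HSCs. Replicate 1 lay above replicate 2 by 0.32 in *Id2*+/+ and by 0.29 in *Id2*Δ/Δ HSCs, and the genotypes met in the middle, where *Id2*Δ/Δ replicate 1 and *Id2*+/+ replicate 2 were almost equal. Its log2 difference was -0.30 (standard error 0.15, 95% interval -0.66 to 0.06), which is 1.23-fold lower in *Id2*Δ/Δ HSCs. Leaving out 1 library gave -0.14 without *Id2*+/+ replicate 1 and -0.46 without *Id2*+/+ replicate 2. The same step in *Id2*Δ/Δ HSCs gave -0.45 when replicate 1 was dropped and -0.16 when replicate 2 was. With an unadjusted p of 0.0879, the smallest among the 9 receptors, and an adjusted p of 0.910 (limma with Benjamini-Hochberg adjustment), it did not pass. *Itga4* has a long transcript, and a correction of each library for transcript length left a log2 difference of -0.16, nearer to 0. The stretch upstream of *Itga4*, with its single CAGCTG, is printed with the promoter windows.

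Markers of another cell type shared the order of the libraries with *Itga4*. For *Itga4* this order rests in part on a near tie, *Id2*Δ/Δ replicate 1 at 8.06 and *Id2*+/+ replicate 2 at 8.05 log2 CPM. The 7 neutrophil markers summed to 136 and 43.5 CPM in *Id2*+/+ and to 77.5 and 16.4 CPM in *Id2*Δ/Δ replicates 1 and 2, the same order of the libraries as for *Itga4*, an order that 3.44% of all tested genes share. The order held for 6 of the 7 genes one by one, *Mmp8* being the exception, and also for the HSC marker *Procr* and the macrophage marker *Csf1r*. The part of neutrophils in the *Itga4* values was not tested. No neutrophil marker was at 0 reads in any library.

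The other chains of the laminin and VCAM1 receptors were steadier. *Itgb1* (ENSMUSG00000025809.15, chr8:128685654-128733200, plus strand) measured 8.19 and 8.15 log2 CPM in *Id2*+/+ and 8.36 and 8.12 log2 CPM in *Id2*Δ/Δ HSCs. The *Id2*Δ/Δ libraries lay on both sides of the controls, and the log2 difference of 0.07 (standard error 0.12, 95% interval -0.21 to 0.35, adjusted p = 0.942, limma with Benjamini-Hochberg adjustment) became -0.05 without *Id2*Δ/Δ replicate 1. *Itga6* (ENSMUSG00000027111.15, chr2:71745616-71858416, plus strand), the laminin-binding alpha6 chain, measured 7.69 and 7.69 log2 CPM in *Id2*+/+ and 7.65 and 7.59 log2 CPM in *Id2*Δ/Δ HSCs. Both *Id2*Δ/Δ libraries were lower, by a gap of 0.04 log2 units. The log2 difference of *Itga6* was -0.07 (standard error 0.11, adjusted p = 0.939, limma with Benjamini-Hochberg adjustment), and its interval runs from 0.799-fold to 1.14-fold. The residual standard deviation of *Itga6* was 0.03 log2 units, against 0.13 for the trend of all genes at its level.

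Because alpha and beta chains work as pairs, the alpha chain was also set against its beta chain within each library, a measure chosen after the values had been seen. The log2 ratio of *Itga4* to *Itgb1*, in CPM without scaling for length, was 0.19 and -0.10 in *Id2*+/+ and -0.30 and -0.36 in *Id2*Δ/Δ HSCs. Both *Id2*Δ/Δ ratios were below both controls, with a difference of -0.37 and an exact permutation p of 0.333, the smallest that 2 libraries against 2 allow. The ratio of *Itga6* to *Itgb1* was also lower in both *Id2*Δ/Δ libraries, with -0.50 and -0.46 in *Id2*+/+ against -0.71 and -0.53 in *Id2*Δ/Δ HSCs (two-sided exact permutation p = 0.333). The 2 ratios share *Itgb1*, so they are not separate observations. Against *Itgb7*, the other partner of the alpha4 chain, the *Itga4* ratio of 2.89 and 3.07 in *Id2*+/+ overlapped that of 2.85 and 3.03 in *Id2*Δ/Δ HSCs.

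LFA-1, the leukocyte integrin that binds ICAM proteins, pairs the alphaL chain (*Itgal*) with the beta2 chain (*Itgb2*). *Itgal* (ENSMUSG00000030830.18, chr7:127296260-127335138, plus strand) measured 4.19 and 2.86 log2 CPM in *Id2*+/+ and 1.96 and 3.07 log2 CPM in *Id2*Δ/Δ HSCs. The reads behind them were 258 and 116 in *Id2*+/+ and 69 and 151 in *Id2*Δ/Δ libraries. One library of each genotype stood apart, high for *Id2*+/+ replicate 1 and low for *Id2*Δ/Δ replicate 1, and the remaining pair lay close together with the *Id2*Δ/Δ library the higher one. The reads-per-million rates differed 2.45-fold between the *Id2*+/+ replicates (exact 95% interval 1.96 to 3.08) and 2.06-fold between the *Id2*Δ/Δ replicates (1.54 to 2.79), more than counting error alone gives. These intervals cover counting error only.

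The log2 difference of *Itgal* was the largest of the 9 receptors, -1.01 (standard error 0.53, 95% interval -2.26 to 0.23), or 2.02-fold lower in *Id2*Δ/Δ HSCs. It did not pass (adjusted p = 0.910, limma with Benjamini-Hochberg adjustment), and leaving out 1 library moved it between -1.68 and -0.35, the latter without *Id2*+/+ replicate 1. Its residual standard deviation was 0.87 log2 units, against 0.33 for the trend at its level. *Cd48*, whose product the sort excluded, followed the same order of the libraries, with 120 and 59 reads in *Id2*+/+ and 47 and 67 reads in *Id2*Δ/Δ HSCs, an order found in 4.79% of all tested genes and also in *Hba-a1*. *Flt3*, the gate's other negative marker, had a different order, which rests in part on a near tie. It measured 49.4 and 49.3 CPM in *Id2*+/+ and 49.7 and 44.4 CPM in *Id2*Δ/Δ replicates 1 and 2. *Flt3* was thus level with the controls in *Id2*Δ/Δ replicate 1, where *Itgal* was lowest. The part of CD48+ cells in the *Itgal* values was not tested. *Itgb2* was steadier, with 6.57 and 6.23 log2 CPM in *Id2*+/+ and 5.99 and 6.01 log2 CPM in *Id2*Δ/Δ HSCs. Its log2 difference of -0.40 (standard error 0.16) had an unadjusted p of 0.0371 and an adjusted p of 0.910 in limma with Benjamini-Hochberg adjustment. The log2 ratio of *Itgal* to *Itgb2* overlapped between the genotypes, with -2.38 and -3.37 in *Id2*+/+ and -4.03 and -2.94 in *Id2*Δ/Δ HSCs (exact permutation p = 0.667).

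**Figure D2:**
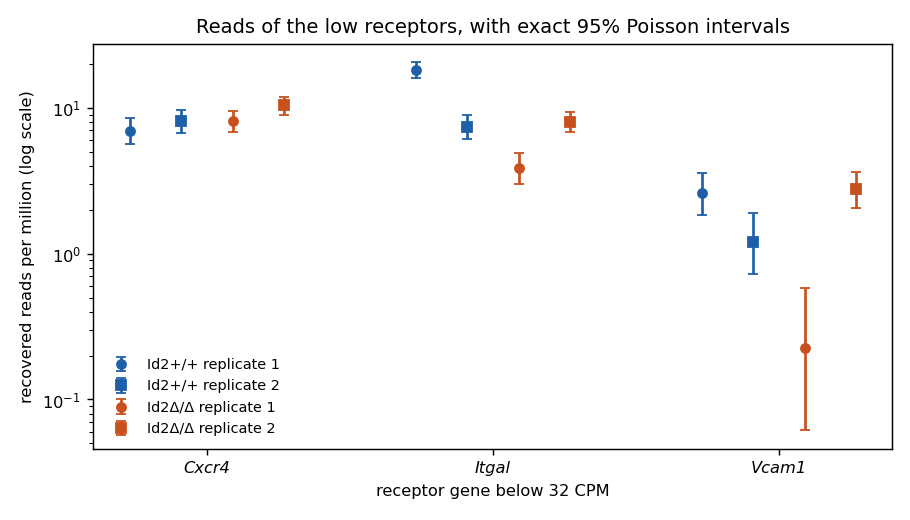
Recovered reads-per-million (log scale, y axis) of the 3 receptors below 32 CPM in each library (blue, Id2+/+; orange, Id2Δ/Δ; circles, replicate 1; squares, replicate 2), with exact 95% Poisson intervals that cover counting error only. *Vcam1* has 4 reads in Id2Δ/Δ replicate 1 and 52 in Id2Δ/Δ replicate 2, and the intervals of these replicates do not meet.

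VCAM1, the ligand of VLA-4, is best known on stromal and endothelial cells and on macrophages, and some HSCs carry it too. *Vcam1* (ENSMUSG00000027962.14, chr3:116109949-116129688, minus strand) had 37 and 19 reads in *Id2*+/+ and 4 and 52 reads in *Id2*Δ/Δ libraries, which is 1.33 and 0.25 log2 CPM against -1.66 and 1.60 log2 CPM. The *Id2*Δ/Δ libraries were the lowest and the highest of the 4. Between them the reads-per-million rates differed 12.3-fold (exact 95% interval 4.51 to 46.7), and between the *Id2*+/+ libraries 2.15-fold (1.2 to 3.95). The log2 difference between the genotypes was -0.82 (standard error 1.10, 95% interval -3.40 to 1.76, adjusted p = 0.931, limma with Benjamini-Hochberg adjustment) and turned to 0.81 without *Id2*Δ/Δ replicate 1. The spread between replicates exceeded this difference, and *Vcam1* showed no direction.

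The summed markers of the cells best known for VCAM1 did not follow its order. The macrophage list, with 6 of 7 genes present, summed to 42.4 and 41.2 CPM in *Id2*+/+ and 43.5 and 36.4 CPM in *Id2*Δ/Δ libraries, with *Mrc1* at 0 reads in both *Id2*Δ/Δ libraries. The endothelial list, with 4 of 5 genes present, summed to 8.96 and 9.66 CPM in *Id2*+/+ and 13 and 7.7 CPM in *Id2*Δ/Δ libraries, with *Stab2* at 0 reads in *Id2*Δ/Δ replicate 1. The stromal list, with 4 of 7 genes present, summed to 36.1 and 28.8 CPM in *Id2*+/+ and 38.4 and 25.5 CPM in *Id2*Δ/Δ libraries. In all 3 lists, *Id2*Δ/Δ replicate 2, the library highest in *Vcam1*, had the lowest sum. These sums rest on few genes. The macrophage sum was mostly *Csf1r* (20.7 to 23.8 CPM) and *Cd68* (13.3 to 17.1 CPM). The stromal sum was mostly *Pdgfrb* (12.8 to 20 CPM) and *Col1a2* (8.54 to 17.2 CPM). Single genes varied. *C1qc* and *Flt4* were lowest in *Id2*Δ/Δ replicate 1, as *Vcam1* was, while *C1qb* and *Kdr* were highest there. The part of macrophages, endothelial or stromal cells in the *Vcam1* values was not tested. The order of *Vcam1* was shared by 5.91% of all tested genes and, among the markers, by the globin genes *Hbb-bs*, with 54 and 18 reads in *Id2*+/+ and 6 and 70 reads in *Id2*Δ/Δ HSCs, and *Hba-a2*, with 6 and 3 against 0 and 19 reads. The full erythroid list, with 6 of 7 genes present, summed to 35.3 and 24.3 CPM in *Id2*+/+ and 29.4 and 33.5 CPM in *Id2*Δ/Δ libraries. This is not the order of *Vcam1*. Its other genes, *Hba-a1*, *Hbb-bt*, *Alas2* and *Car1*, had other orders too. *Car1* was highest in *Id2*Δ/Δ replicate 1, where *Vcam1* was lowest, and *Alas2* was lowest in *Id2*Δ/Δ replicate 2, where *Vcam1* was highest. The part of erythroid cells in the *Vcam1* values was not tested. The HSC genes *Gata2* and *Ctnnal1* had the order of *Vcam1* as well.

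Receptors for matrix and for rolling were evenly expressed. *Cd44* (ENSMUSG00000005087.17, chr2:102811141-102901665, minus strand), the hyaluronan receptor, measured 7.21 and 7.11 log2 CPM in *Id2*+/+ and 7.46 and 7.14 log2 CPM in *Id2*Δ/Δ HSCs. Its log2 difference of 0.14 (standard error 0.14, 95% interval -0.20 to 0.47, adjusted p = 0.920, limma with Benjamini-Hochberg adjustment) rested on *Id2*Δ/Δ replicate 1 and was -0.02 without it. *Selplg* (ENSMUSG00000048163.13, chr5:113818536-113832644, minus strand), which encodes PSGL-1, measured 7.04 and 6.92 log2 CPM in *Id2*+/+ and 7.06 and 7.04 log2 CPM in *Id2*Δ/Δ HSCs. The groups of *Selplg* touched, and the log2 difference of 0.07 (standard error 0.12, adjusted p = 0.942, limma with Benjamini-Hochberg adjustment) has an interval from 0.862-fold to 1.28-fold.

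*Robo4* (ENSMUSG00000032125.20, chr9:37401897-37415115, plus strand) was the steadiest of the 9 receptors. It measured 6.06 and 6.07 log2 CPM in *Id2*+/+ and 6.03 and 6.00 log2 CPM in *Id2*Δ/Δ HSCs. Both *Id2*Δ/Δ libraries were lower by a gap of 0.02 log2 units, and the 4 libraries spanned 1.05-fold. The log2 difference was -0.04 (standard error 0.14, adjusted p = 0.965, limma with Benjamini-Hochberg adjustment), with an interval from 0.776-fold to 1.21-fold. This direction turned to 0.02 after the correction for transcript length. The standard error comes mostly from the spread of all genes at its level, 0.16 log2 units, since the residual standard deviation of *Robo4* itself was 0.02.

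**Figure D3:**
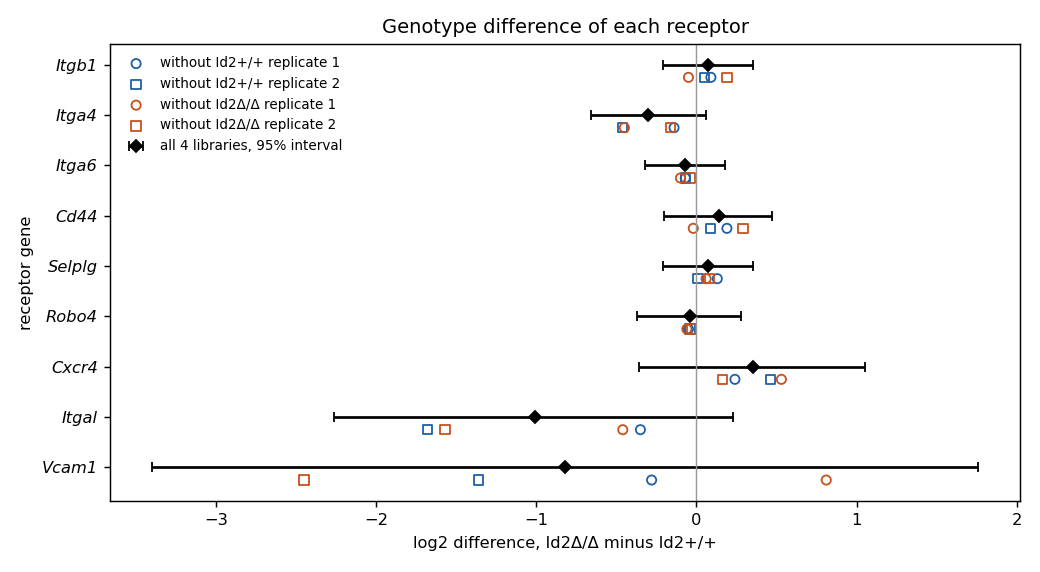
Log2 difference between the genotypes (x axis, Id2Δ/Δ minus Id2+/+) for each receptor gene, as the limma estimate with its 95% interval (black diamonds and bars) and after leaving out each library in turn (open symbols). All 9 intervals cross 0, and the open symbols fall on both sides of 0 for *Itgb1*, *Cd44* and *Vcam1*.

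Levels were also compared between the receptors, as CPM per kilobase of the longest coding transcript in GENCODE M21. On this scale *Itgb1* led with a mean of 77.7 (73.1 to 86.2 over the 4 libraries), followed by *Selplg* with 69.8 (65.5 to 72.1) and *Itga6* with 46.8 (44.8 to 47.9). *Itga4*, at 27.7 (22.3 to 34.1), and *Cd44*, at 26.9 (24.7 to 31.3), did not differ beyond their spread. *Robo4* had 13.3 (12.9 to 13.5) CPM per kilobase and *Cxcr4* 4.66 (3.78 to 5.9). *Itgal*, at 1.81 CPM per kilobase (0.743 to 3.5), and *Vcam1*, at 0.509 (0.0914 to 0.875), overlapped and closed the order, with the mean of *Itgb1* 152-fold above that of *Vcam1*. The other neighbours in this order had separate ranges. The transcript that HSCs use may be shorter than the longest one, which would raise a gene's level per kilobase.

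**Figure D4:**
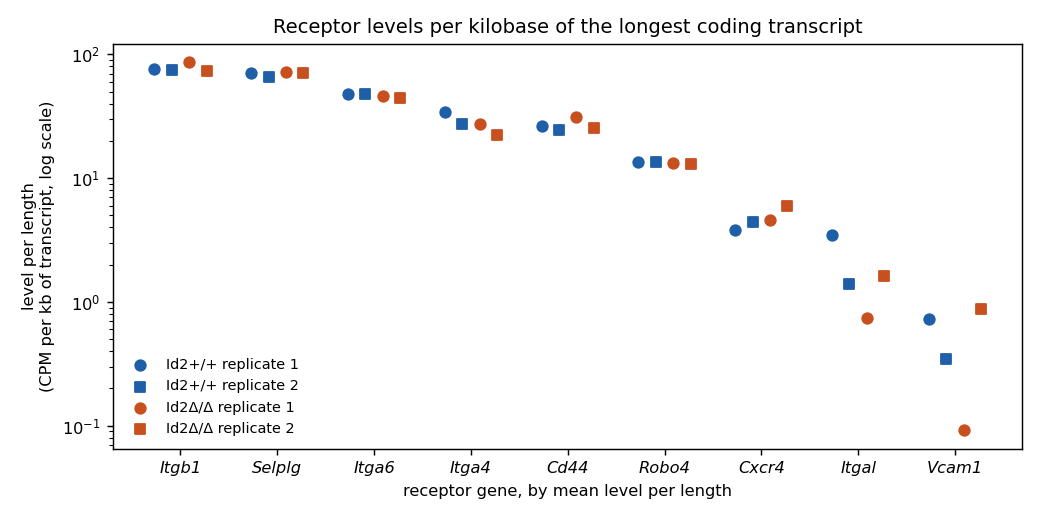
Level per transcript length (CPM per kilobase of the longest coding transcript, log scale, y axis) of each receptor gene in each library (blue, Id2+/+; orange, Id2Δ/Δ; circles, replicate 1; squares, replicate 2). The order runs from *Itgb1* at 73.1 to 86.2 to *Vcam1* at 0.0914 to 0.875, and only the neighbours *Itga4* with *Cd44* and *Itgal* with *Vcam1* overlap.

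The receptors act within a larger set of adhesion and homing genes. Of a list of 120 genes that includes the 9 receptors, 107 had a row and 102 were tested. With the call rule of an adjusted p under 0.05 (limma with Benjamini-Hochberg adjustment), 0 of 102 passed. An unadjusted p under 0.05 was reached by 8 genes, of which 1 had its higher mean in *Id2*Δ/Δ HSCs and 7 in the controls, against 1.72% and 2.95% of all tested genes. The libraries did not overlap for 16 genes upward and 22 downward of these 102, against 19.0% and 15.8% of all tested genes, and the median log2 difference was -0.03, against 0.01 over all tested genes. The medians of the role groups ran from -0.18 to 0.14.

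**Figure D5:**
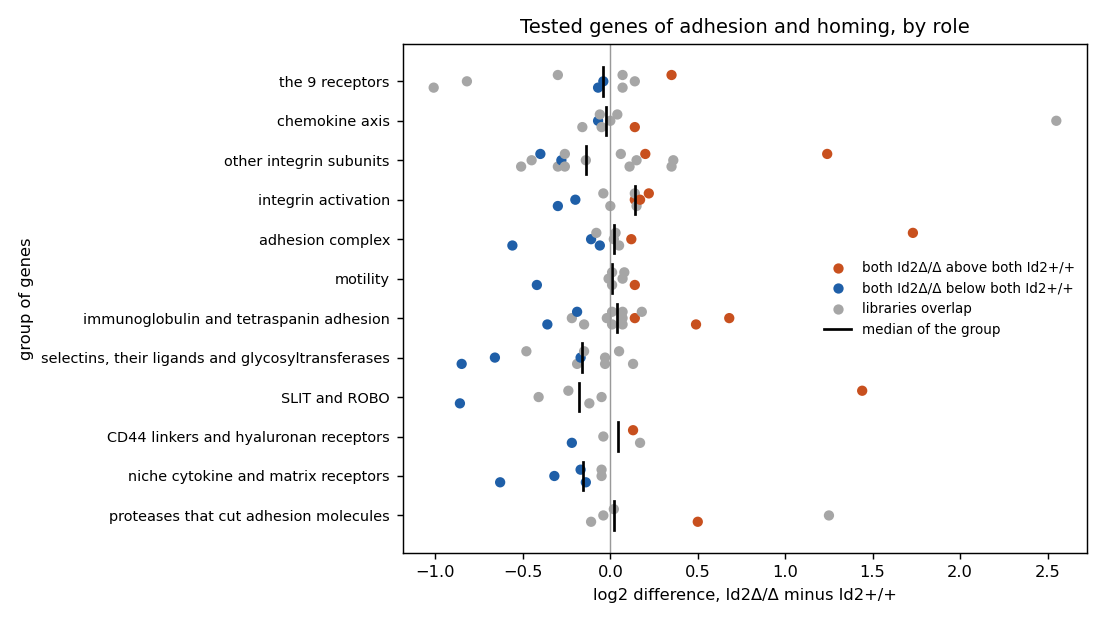
Log2 difference between the genotypes (x axis, Id2Δ/Δ minus Id2+/+) of the 102 tested genes of adhesion and homing, in rows by role, with a black bar at the median of each row. Orange points have both Id2Δ/Δ libraries above both Id2+/+ libraries (16 genes), blue points both below (22 genes), and grey points overlap.

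The 15 other tested integrin subunits had a median log2 difference of -0.14. *Itga2b*, the platelet integrin alpha chain and the most abundant of them, measured 7.73 and 7.40 log2 CPM in *Id2*+/+ and 7.47 and 7.78 log2 CPM in *Id2*Δ/Δ HSCs, which overlapped. Its partner *Itgb3* had a log2 difference of 0.20, with both *Id2*Δ/Δ libraries higher. Genes that switch integrins on had a median of 0.14 over 9 tested. Among them *Rasgrp2*, an exchange factor for RAP1, had a log2 difference of 0.22 and *Tln1*, the talin that links integrin tails to actin, one of -0.20. None of these passed in limma.

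The 9 tested genes of the adhesion complex had a median log2 difference of 0.02. *Ptk2*, focal adhesion kinase, measured 4.92 and 5.18 log2 CPM in *Id2*+/+ and 4.36 and 4.61 log2 CPM in *Id2*Δ/Δ HSCs, a difference of -0.56 (standard error 0.20, adjusted p = 0.910 and unadjusted p = 0.0259, limma with Benjamini-Hochberg adjustment). *Parvb*, a parvin that binds integrin-linked kinase, was the only gene of the list with an unadjusted p under 0.05 and a higher mean in *Id2*Δ/Δ HSCs. It had 17 and 12 reads in *Id2*+/+ and 81 and 36 reads in *Id2*Δ/Δ HSCs, a log2 difference of 1.73 (standard error 0.66). *Zyx*, the most abundant of the group, had a log2 difference of -0.06.

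None of the tested genes of motility and cell-cell contact passed in limma. *Dock2*, the exchange factor that activates RAC in blood cells, measured 9.16 and 9.08 log2 CPM in *Id2*+/+ and 8.81 and 8.59 log2 CPM in *Id2*Δ/Δ HSCs. Both *Id2*Δ/Δ libraries were lower, with a log2 difference of -0.42 (standard error 0.11, adjusted p = 0.910 and unadjusted p = 0.00698, limma with Benjamini-Hochberg adjustment). Of the 14 tested immunoglobulin and tetraspanin genes, *Cd82*, a tetraspanin, had a log2 difference of -0.36 with an unadjusted p of 0.0482, and *Jam2*, a junctional adhesion molecule, one of 0.68 with an unadjusted p of 0.0681, both at an adjusted p of 0.910 in limma. *Cd47*, the most abundant of them, overlapped between the genotypes.

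In the selectin group, 8 of 10 tested genes had a lower mean in *Id2*Δ/Δ HSCs, against 48.3% of all tested genes, and the log2 differences had a median of -0.16. *St3gal6*, a sialyltransferase that takes part in building selectin ligands such as the glycans of PSGL-1, measured 4.65 and 4.42 log2 CPM in *Id2*+/+ and 3.44 and 3.94 log2 CPM in *Id2*Δ/Δ HSCs. Its log2 difference was -0.85 (standard error 0.25, adjusted p = 0.910 and unadjusted p = 0.0114, limma with Benjamini-Hochberg adjustment), while that of *Selplg*, the carrier of such glycans, was 0.07. *Cd34*, the most abundant gene of the group, overlapped between the genotypes, with a log2 difference of -0.03. The paper, by contrast, reports increased *Cd34* RNA in *Id2*Δ/Δ HSCs from scRNA-Seq and qRT-PCR, which are other assays than the bulk RNA-Seq used here.

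Of the 6 tested SLIT and ROBO genes, 5 had a lower mean in *Id2*Δ/Δ HSCs and 1, *Robo1*, a higher one, with a median log2 difference of -0.18. *Slit2*, a ligand of ROBO receptors, had 83 and 77 reads in *Id2*+/+ and 52 and 49 reads in *Id2*Δ/Δ HSCs, a log2 difference of -0.86 with an unadjusted p of 0.0621 (adjusted p = 0.910, limma with Benjamini-Hochberg adjustment). *Robo1* had 7 and 37 reads in *Id2*+/+ and 57 and 43 reads in *Id2*Δ/Δ HSCs, so that 1 control library with few reads set most of its log2 difference of 1.44. *Srgap2*, a signal carrier of ROBO receptors and the most abundant of the group, had one of -0.12. The 4 tested CD44 linkers and hyaluronan receptors split evenly, and among those that tie CD44 to actin, *Rdx* had a log2 difference of 0.13, *Ezr* one of -0.22 and *Msn*, the most abundant, one of -0.04.

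All 6 tested niche cytokine and matrix receptors had their lower mean in *Id2*Δ/Δ HSCs (median of the log2 differences -0.16), and 4 of them had non-overlapping libraries. Over all tested genes the shares are 48.3% and 15.8%. *Kit*, the receptor of stem cell factor and 1 of the proteins used in the sort, measured 11.08 and 10.93 log2 CPM in *Id2*+/+ and 10.19 and 10.55 log2 CPM in *Id2*Δ/Δ HSCs. Its log2 difference was -0.63 (standard error 0.13, adjusted p = 0.910 and unadjusted p = 0.00172, limma with Benjamini-Hochberg adjustment). *Adgrg1*, the most abundant of the group, had a log2 difference of -0.17. Among the 5 tested proteases, *Mmp14*, a membrane-bound matrix metalloprotease, had a log2 difference of 0.50 with both *Id2*Δ/Δ libraries higher (adjusted p = 0.910 and unadjusted p = 0.051, limma with Benjamini-Hochberg adjustment). *Adam10*, the most abundant of the proteases, had one of -0.11.

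For the 3 receptors with non-overlapping libraries, the genes nearest in pattern were sought by the Euclidean distance of log2 values centred on each gene's mean over the 4 libraries. For *Cxcr4* these were *Cox6b2*, *3110009E18Rik* and *Gm13032*, at distances of 0.0279 to 0.0386, among 19 genes within 0.1. For *Itga6* they were *Sco2*, *Bin2* and *Thap4*, at 0.0167 to 0.0194, among 417 genes within 0.1. For *Robo4* they were *Plxnb2*, *Iars* and *Sco2*, at 0.0137 to 0.0166, among 477 genes within 0.1. With 4 libraries and values this flat, nearness of this kind is common, as the 417 and 477 genes show.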

How the data were processed

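RNA-Seq libraries of sorted HSCs, 2 per genotype, were compared. The authors deposited log2 CPM values for 19354 genes. Sorted, the 4 columns lie within 0.1 of each other at 88.4% of ranks, as quantile normalization leaves them. The submitters' processing notes name CASAVA 1.8.4, Trimmomatic 0.30, TopHat2 2.0.8, RSEM and STAR and the builds mm9 and NCBIM37, without roles. Normalization tool, gene filter and strand use are not given in the sources used here, so overlapping and antisense genes are uncertain. All 4 columns were used.

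The test was limma 3.58.1 (R 4.3.3) on the 15895 genes whose mean reached 1 CPM. Genotype was the only term in lmFit, eBayes used the intensity trend, and two-sided p-values were adjusted by Benjamini-Hochberg. The depth is 14207350 to 18831991 reads per library, where 3 reads correspond to 0.159 to 0.211 CPM. Reads were recovered below 32 CPM, which holds 62.1% of values, from the rank of each distinct value. Higher values gave no reads, so a count model could not be used. The limma test and the read recovery were tested on simulated data. Intervals of reads are exact Poisson, and ratios of reads have exact binomial intervals. The length correction removed, in each library, a natural spline (5 degrees of freedom) of the gene-centred values on transcript length.

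GENCODE M21 (GRCm38) gave coordinates and transcript lengths. Ensembl identifiers matched for 99.7% of genes, with the same version number for 82%. Which annotation was counted is not settled. Promoter windows are from RefSeq.

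The receptors and the gene and marker lists were chosen with earlier results of these data known. Text names all 9 receptors, and, per role group, the non-overlapping gene with the smallest p in each direction and the most abundant gene. Some genes the rule picks are not reported here. *S1pr1*, *Cxcl12* and *Itgb7* were added after their values were seen. Alternatives varied the pseudocount, filter, scaling, trend, threshold, replicate number as a term, transcript length, the libraries included and, added after seeing the data, recovered reads over depth.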

Additional observations from a re-analysis of the deposited data

How the results depend on the processing

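Over 135 alternatives for the 9 receptors, 130 kept the direction. Changing the filter or the intensity trend, or adding the replicate block alone, leaves each receptor's log2 difference as it is. Those alternatives could not have changed the direction, so the count says little about differences near 0. In the 132 alternatives with a limma test none brought an adjusted p under 0.05. The lowest, 0.291, was for *Vcam1* without *Id2*Δ/Δ replicate 2, and fits of this kind leave 1 library in a genotype, which is assumed to vary like the other genotype. The other 3 set recovered reads over depth for *Cxcr4* (0.29), *Itgal* (-1.06) and *Vcam1* (-1.17), without a test and chosen after seeing the data. The reversals were *Robo4*, at 0.02 under the length correction and 0.02 under the replicate block with length correction, and, with a library left out, *Cd44* (-0.02 to 0.29), *Itgb1* (-0.05 to 0.19) and *Vcam1* (-2.45 to 0.81), each without *Id2*Δ/Δ replicate 1. The median over the receptors, -0.04, became 0.02 under the length correction, 0.02 under the replicate block with length correction, and 0.01 with genes of at least 10 CPM, where *Cxcr4*, *Itgal* and *Vcam1* are not tested. Pseudocounts of 0.1, 1 and 5 shrank *Vcam1* to -0.69, -0.27 and -0.06. The number of genes called went from 0 to 742 at an unadjusted p under 0.05, 8 of them in the adhesion list. No label ties the replicate numbers to an experiment. Deviations from the genotype means correlated, between libraries of one number, at 0.0592 over all tested genes and at 0.144 over those above 32 CPM. With the replicate block 1 gene was called, and 1 with the block and length correction, *C130089K02Rik* in both, while *Itga4* had an unadjusted p of 0.0341 and an adjusted p of 0.829 in limma. Depth limits *Vcam1* most, with 4 to 52 reads per library.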

Other observations

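Further proteases that cut adhesion molecules were read by their counts, and these genes were chosen after their values were seen. *Mmp9* had 28 and 15 reads in *Id2*+/+ and 0 and 2 reads in *Id2*Δ/Δ HSCs. *Ctsg*, cathepsin G, had 1 and 4 reads in *Id2*+/+ and 23 and 26 reads in *Id2*Δ/Δ HSCs, and *Elane*, neutrophil elastase, 47 and 22 against 143 and 52 reads. *Mmp9* had fewer reads and *Ctsg* more in both *Id2*Δ/Δ libraries, both genes being under the filter for testing, while *Elane* overlapped between the genotypes once depth is taken into account (3.31 and 1.4 against 8.05 and 2.76 reads-per-million). *Itga10*, a collagen-binding integrin chain with 9 and 9 reads in *Id2*+/+, had 49 and 11 reads in *Id2*Δ/Δ HSCs, so 1 library carried its log2 difference of 1.24. The megakaryocyte markers, with 5 of 6 genes present, summed to 132 and 169 CPM in *Id2*+/+ and 237 and 201 CPM in *Id2*Δ/Δ HSCs. Both *Id2*Δ/Δ sums were above the controls. The largest part was *Pf4*, with 69.8 and 102 against 151 and 117 CPM, and *Gp9* and *Gp1bb* were also higher in both *Id2*Δ/Δ libraries. *Ppbp* was lower in both (3.94 and 3.52 against 2.77 and 2.93 CPM), and *Treml1* overlapped. *Itga2b*, which megakaryocytes also express, overlapped too. The B-cell markers, with 2 of 6 genes present, summed to 33.6 and 37.9 CPM in *Id2*+/+ and 50.9 and 34.5 CPM in *Id2*Δ/Δ HSCs, and those of T and NK cells, with 2 of 6 present, to 56.7 and 42.6 against 59.8 and 45.5 CPM.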
